A study of Rattus norvegicus with 24 samples.

Results

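Aldh3a1 was followed through the livers of 24 female Sprague-Dawley rats, from vehicle to the highest of 7 doses of TCDD. TCDD (2,3,7,8-tetrachlorodibenzo-p-dioxin) is a chlorinated dioxin that binds and activates the aryl hydrocarbon receptor (AHR). The gene is 1 row, ENSRNOG00000002331, among the 26404 Ensembl gene IDs of each count table. It was singled out because earlier results of these data showed it as the largest rise at the highest dose. Its level in every group, the dose at which it left its low range, its steepness and the missing plateau are therefore given as a description, with no test.

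The rats received sesame oil alone as vehicle, or TCDD in a low range (0.01, 0.03 and 0.1 µg/kg), a middle range (0.3 and 1 µg/kg) or a high range (3 and 10 µg/kg). Dosing was by oral gavage at intervals of 4 days, and livers were taken on day 28. Each of the 8 groups held 3 libraries that the series describes as biological replicates, and all rats carried the age label of 57 days. Sprague-Dawley is an outbred stock, and each library came from whole liver. Gene counts per library ranged from 11816273 to 15804887. The count tables name genes by Ensembl ID only, so the liver label could not be set against hepatocyte markers or those of other cell types.

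Aldh3a1 encodes a cytosolic aldehyde dehydrogenase that oxidises medium-chain and aromatic aldehydes, including aldehydes formed by lipid peroxidation, to carboxylic acids. It is abundant in cornea and stomach and scarce in normal rat liver. In rat liver it is a classic inducible member of the AHR gene battery, the set of drug-metabolising genes switched on by dioxins and polycyclic aromatic hydrocarbons. The liganded receptor pairs with ARNT and binds short response elements near such genes. Levels below are CPM, a gene's counts scaled to the library's total gene counts, with libraries made comparable by the trimmed mean of M-values (TMM). Whole liver was sequenced, so more expressing cells and more RNA per cell cannot be told apart.

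Aldh3a1 was close to silent in vehicle and at 0.01 and 0.1 µg/kg, was uneven between rats at 0.03 µg/kg, and stood higher at every step from 0.3 to 10 µg/kg. The vehicle libraries held 7, 4 and 2 counts, or 0.540, 0.321 and 0.169 CPM. At 0.01 µg/kg the libraries held 2, 7 and 6 counts, or 0.163, 0.545 and 0.443 CPM. These groups overlapped over nearly their whole range.

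At 0.1 µg/kg the libraries held 1, 4 and 4 counts, or 0.0826, 0.314 and 0.300 CPM, which was the lowest mean of the series. A count of 3, taken as the limit of detection, is worth 0.190 to 0.254 CPM in these libraries before TMM scaling. The means of vehicle, 0.01 and 0.1 µg/kg therefore lay near that limit. In each of these groups a library with 1 or 2 counts lay below it. Their summed counts of 13, 15 and 9 had exact 95% Poisson intervals of 6.92 to 22.2, 8.40 to 24.7 and 4.12 to 17.1. These intervals cover counting error only. The ratio of summed counts to vehicle, corrected for library size, was 1.11 at 0.01 µg/kg (95% interval 0.493 to 2.54). At 0.1 µg/kg it was 0.675 (0.255 to 1.71). A difference from vehicle at these 2 doses was not detectable at this depth.

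The 0.03 µg/kg group was split. Its libraries held 13, 78 and 2 counts, or 0.864, 5.38 and 0.143 CPM. Replicate 2 thus lay above every other library of vehicle and of the doses from 0.01 to 0.3 µg/kg. Replicate 3 held 2 counts, the same as vehicle replicate 3 and under the limit of detection. The group's ratio to vehicle was 6.13 over all 3 libraries (3.41 to 11.9, counting error only) and 1.48 without replicate 2 (0.658 to 3.38). The fitted log2 fold change was 2.58 (SE 0.94) over all libraries and 0.56 without that library. The mean of this group rests on that library.

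ENSRNOG00000019500, a gene ID with a rise from the lowest dose on, had 1075, 1486 and 639 CPM in the 3 libraries of this group. It too was highest in replicate 2 and lowest in replicate 3.

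The lowest dose at which all 3 libraries stood above every vehicle library was 0.3 µg/kg. The libraries there held 25, 23 and 11 counts, or 2.05, 1.95 and 0.869 CPM, against a highest vehicle value of 0.540 CPM. The lowest of them was 2.77 times the highest library at 0.1 µg/kg. The ratio of summed counts was 4.62 to vehicle (2.50 to 9.18) and 6.84 to 0.1 µg/kg (3.37 to 15.7), with intervals that cover counting error only. The fitted log2 fold change to vehicle was 2.19 (SE 0.99), and 69 of the 12496 tested genes had a larger one.

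From 1 µg/kg on, the counts were no longer small. At 1 µg/kg the libraries held 468, 177 and 150 counts, or 33.9, 14.0 and 11.9 CPM. At 3 µg/kg they held 1630, 3353 and 4153 counts, or 110.3, 293 and 331 CPM. At 10 µg/kg they held 18264, 37445 and 25559 counts, or 1201, 2171 and 1589 CPM. These 3 groups overlapped neither with each other nor with any lower group.

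**Figure D1:**
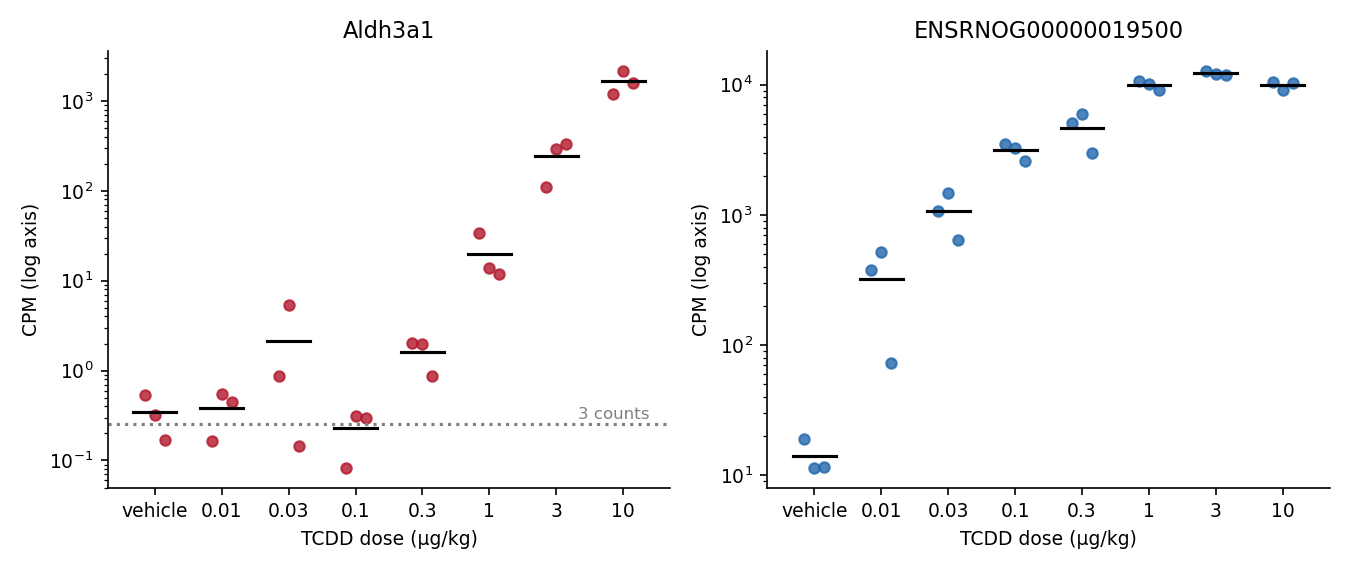
Level of Aldh3a1 (left) and of ENSRNOG00000019500 (right) in each of the 24 libraries, in CPM on a log axis, by TCDD dose in µg/kg with vehicle at the left. Points are libraries and black bars group means (n = 3). The dotted line is the highest CPM value that 3 counts are worth before TMM scaling, 0.254. Aldh3a1 stays near that line up to 0.1 µg/kg apart from the 0.03 µg/kg group and reaches 1201 to 2171 CPM at 10 µg/kg, while the other gene is at 9091 to 12837 CPM from 1 µg/kg on.

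In order of mean level the groups ran 0.1 µg/kg, vehicle, 0.01, 0.3, 0.03, 1, 3 and 10 µg/kg. Their means were 0.232 ± 0.130, 0.343 ± 0.186, 0.384 ± 0.198, 1.62 ± 0.656, 2.13 ± 2.84, 19.9 ± 12.1, 245 ± 118 and 1653 ± 488 CPM (SD, n = 3). Neighbours in this order overlapped for 0.1 µg/kg and vehicle, for vehicle and 0.01 µg/kg, and for 0.3 and 0.03 µg/kg. The other neighbours did not overlap. As a share of all gene counts, Aldh3a1 made up 3.34e-05% ± 1.87e-05 in vehicle, 0.0235% ± 0.0117 in the 3 µg/kg group and 0.181% ± 0.0526 in the 10 µg/kg group (SD, n = 3).

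The place of Aldh3a1 among the 12496 tested genes differed between doses. Ranked by fitted log2 fold change to vehicle, it was number 3742 for 0.01 µg/kg, 17 for 0.03 µg/kg, 11739 for 0.1 µg/kg and 70 for 0.3 µg/kg. It was number 10 for 1 µg/kg, 7 for 3 µg/kg and 1 for 10 µg/kg. Rank 17 at 0.03 µg/kg goes with the split group described above. The ranks at 0.01 and 0.1 µg/kg come from log2 fold changes of 0.15 (SE 1.24) and -0.55 (SE 1.38). No direction is read from these 2 ranks. All 7 comparisons share the same vehicle libraries, which held 13 counts in all, so the fitted folds share that small denominator. Aldh3a1 passed the filter on low counts through its higher groups: fits of vehicle with the 0.01, 0.03 or 0.1 µg/kg group alone dropped it.

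Steepness could be read between neighbouring doses, without the vehicle libraries. The mean at 0.3 µg/kg was 7.00 times that at 0.1 µg/kg, and the mean at 1 µg/kg was 12.3 times that at 0.3 µg/kg. At 3 µg/kg it was 12.3 times the mean of 1 µg/kg, and at 10 µg/kg 6.75 times the mean of 3 µg/kg. The equal size of the 2 steps on either side of 1 µg/kg rests on replicate 1 of that group, since the group's mean was 13.0 CPM without it, against 19.9 CPM with it. On log-log axes, where a slope of 1 means that the level grows in proportion to the dose, these steps had slopes of 1.77, 2.08, 2.28 and 1.59. The slopes of 2.08 and 2.28 rest on that library in the same way: without it the fitted log2 fold changes of those steps were 2.99 for 1 over 0.3 µg/kg and 4.24 for 3 over 1 µg/kg. From 0.3 µg/kg on the mean thus differed by a larger factor than the dose at each step. The step from 0.1 µg/kg, of 7.00 times and slope 1.77, divides by a mean of 0.232 CPM, 9 counts in all. Its ratio of summed counts had an interval of 3.37 to 15.7 from counting error alone, so its slope is uncertain.

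The fitted log2 fold changes of the upper steps were 3.62 (SE 0.68) for 1 over 0.3 µg/kg, 3.61 (SE 0.61) for 3 over 1 µg/kg and 2.76 (SE 0.58) for 10 over 3 µg/kg. Without replicate 1 at 1 µg/kg the first of these was 2.99 and the second 4.24. The difference between steps was not tested, and no order of the steps is read from these values. No plateau was seen: the lowest library at 10 µg/kg held 3.62 times the highest at 3 µg/kg. Among the 12496 tested genes the step of Aldh3a1 was number 7 from the top for 1 over 0.3 µg/kg, 14 for 3 over 1 µg/kg and 37 for 10 over 3 µg/kg.

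ENSRNOG00000019500, chosen for its early rise with earlier results of these data known, had a different course over the same steps. The p-values of this ID are therefore a description. Its log2 fold change was 1.09 (SE 0.43, edgeR adjusted p = 0.762) for 1 over 0.3 µg/kg and 0.31 (SE 0.43, edgeR adjusted p = 0.856) for 3 over 1 µg/kg. For 10 over 3 µg/kg it was -0.31 (SE 0.43, edgeR adjusted p = 0.731). None of these steps passed the threshold of 0.05, which does not show that the levels were equal. The SE and p-values rest on a spread fitted over all 8 groups. For this gene the SD of CPM was 3.83% to 7.98% of the mean at 1, 3 and 10 µg/kg. It was larger in every other group. At 1 µg/kg the lowest library of this gene held 1.53 times the highest at 0.3 µg/kg. At 3 µg/kg the lowest held 1.12 times the highest at 1 µg/kg. The libraries at 10 µg/kg held 10447, 9092 and 10257 CPM and lay below all of those at 3 µg/kg, which held 12837, 12104 and 11957 CPM. In both groups the order of the replicates differed between the genes. At 10 µg/kg replicate 2 was the highest for Aldh3a1 and the lowest for ENSRNOG00000019500. At 3 µg/kg replicate 1 was the lowest for Aldh3a1 and the highest for the other. At 1 µg/kg the order was the same for both genes, with replicate 1 the highest and replicate 3 the lowest.

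**Figure D2:**
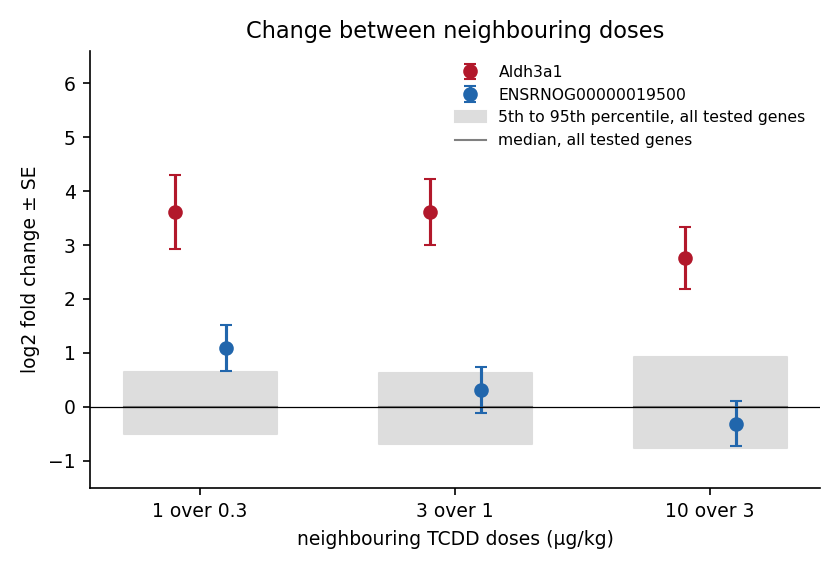
Log2 fold change between neighbouring doses for Aldh3a1 and ENSRNOG00000019500, with the SE from the edgeR fit as error bars. Grey bands run from the 5th to the 95th percentile of the 12496 tested genes and the grey line is their median. Aldh3a1 is at 3.62, 3.61 and 2.76, above the band at each step. The other gene is at 1.09, above the band, and then at 0.31 and -0.31, inside it.

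Large changes in all 3 upper steps were rare. Of the 12496 tested genes, 154 had a fitted rise of at least 4-fold in at least 1 of the 3 steps, 27 in at least 2, and 2 in all 3. Aldh3a1 was one of these 2, and the other was the fifth of the genes most like it, described below. That gene's mean was 0.0263 CPM at 0.3 µg/kg, under the limit of detection, so its first step is no measure of size. The threshold of 4-fold was chosen with the values of Aldh3a1 known.

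**Figure D3:**
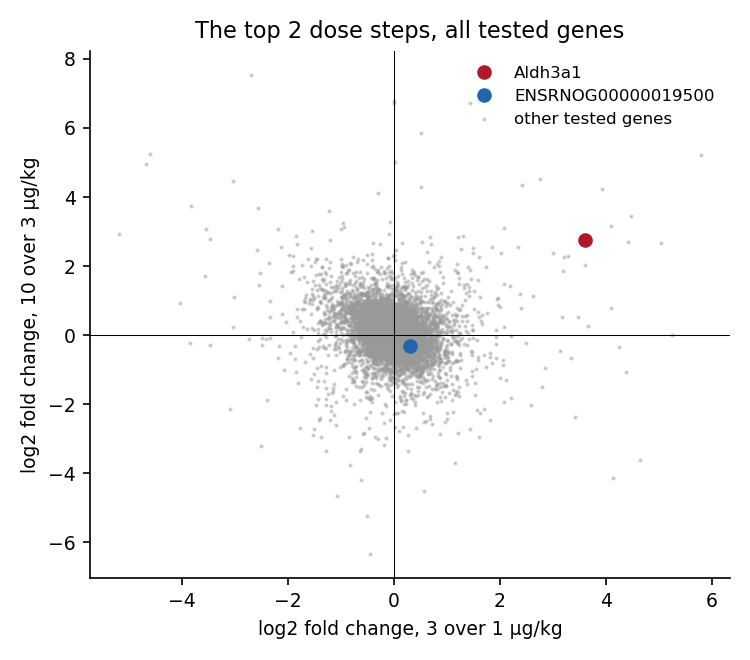
Fitted log2 fold change of 10 over 3 µg/kg (vertical) against that of 3 over 1 µg/kg (horizontal) for each of the 12496 tested genes. Both axes use the 3 µg/kg libraries, with opposite sign. Aldh3a1 is at 3.61 and 2.76, among the few genes in the upper right, and ENSRNOG00000019500 is at 0.31 and -0.31.

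From 1 µg/kg on, Aldh3a1 varied more between replicates than most genes of similar CPM, a match that takes no account of gene length. At 1 µg/kg the SD of log2 CPM was 0.81, against a median of 0.19 over the 500 genes of nearest level, and 97.2% of those genes varied less. At 3 µg/kg the SD was 0.87 against 0.20, with 99.2% varying less. At 10 µg/kg it was 0.43 against 0.15, with 89.0% varying less. The highest library held 2.84, 3.01 and 1.81 times the lowest at these 3 doses. The fitted biological coefficient of variation is a single value per gene over vehicle and all doses, so it is not specific to these 3 doses. It was 58.5% for Aldh3a1 and 36.5% for ENSRNOG00000019500, against a median of 18.5% over all tested genes. For ENSRNOG00000019500 the SD of CPM was 7.98%, 3.83% and 7.39% of the mean at 1, 3 and 10 µg/kg. In vehicle and at the doses up to 0.3 µg/kg it ran from 15.4% (0.1 µg/kg) to 70.9% (0.01 µg/kg).

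In vehicle and at 0.01 and 0.1 µg/kg the spread was close to the size that counting alone gives. The variance of the counts divided by their mean, which is near 1 for pure counting error, was 1.46 in vehicle. The 0.01 µg/kg group had 1.4, the 0.1 µg/kg group 1.00 and the 0.3 µg/kg group 2.92. In the 0.03 µg/kg group this ratio was 54.4. The SD of log2 CPM was 0.56 for vehicle (genes of like level: 0.60), 0.61 for the 0.01 µg/kg libraries (0.55) and 0.56 for those of 0.1 µg/kg (0.58). At 0.03 µg/kg the SD of 2.13 was larger than that of all 500 genes of like level, whose median was 0.38.

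**Figure D4:**
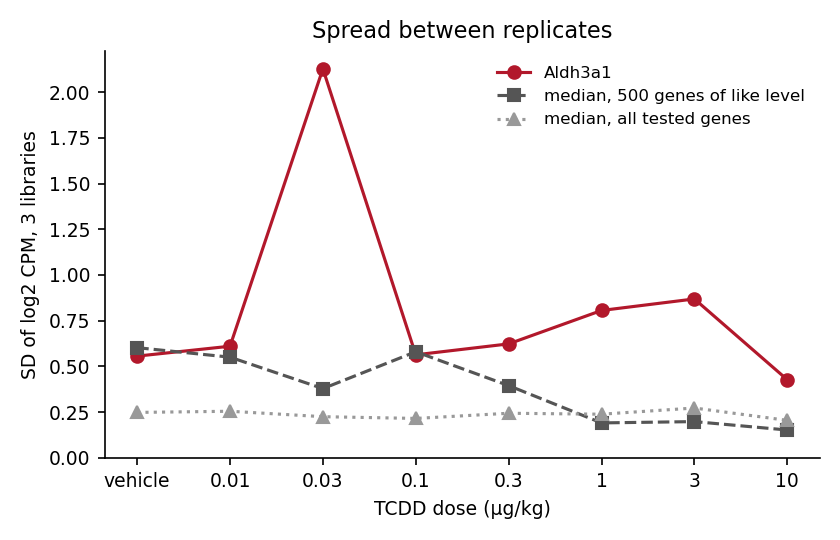
SD of log2 CPM over the 3 libraries of each group (prior count 2) for Aldh3a1, with the median over the 500 tested genes of nearest mean level in that group and the median over all tested genes. Aldh3a1 matches genes of like level in vehicle and at 0.01 and 0.1 µg/kg, stands at 2.13 at 0.03 µg/kg, and lies above them from 0.3 µg/kg on.

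Genes with a similar course were sought by Pearson's r of log2 CPM with Aldh3a1 over the 24 libraries. The 10 highest had r of 0.945 to 0.959, and 49 genes had r above 0.9, where the median over all tested genes was -0.00777. The libraries share their doses, so r describes a common dose pattern and carries no p. ENSRNOG00000019500 had r of 0.641 and was number 957 in this order. The choice of the 10 depends on the measure, since 2 of them were also among the 10 highest by Spearman's rho.

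The gene most like it, ENSRNOG00000014721 (r 0.959), was also near silent in vehicle, with 1, 2 and 0 counts. It held 8, 4 and 8 counts with 0.3 µg/kg and 36, 45 and 52 with 1 µg/kg. It held 140, 141 and 118 counts with 3 µg/kg, and 458, 441 and 611 with 10 µg/kg. Its groups from 0.3 µg/kg upward did not overlap, and its mean reached 31.2 ± 6.29 CPM at 10 µg/kg (SD, n = 3). Among the 10 genes, 4 lay below 1 CPM in vehicle and the others were expressed there at up to 591 CPM. Their log2 fold change of 10 µg/kg over vehicle ran from 1.11 to 9.63, against 12.18 for Aldh3a1. The 4 genes low in vehicle had 8.44 to 9.63, from vehicle means of 0.0282 to 0.0796 CPM. Those means are under the limit of detection, so these 4 fold changes are no measure of size. The others ran from 1.11 to 3.57.

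All 10 had a positive log2 fold change for 10 over 3 µg/kg, from 0.09 to 2.28 with a median of 0.51, against 2.76 for Aldh3a1. Of the 10, 4 were called as higher in that comparison (edgeR adjusted p below 0.05), where 2.46% of all tested genes were. They were chosen on libraries that include these doses, so the count is a description. A fit of the 10 and 3 µg/kg groups alone called 2 of the 10, while DESeq2 and a fit blocked on replicate number each called 6. Of all the genes each of them tested, the fit of those groups alone called 150 as higher, DESeq2 450 and the blocked fit 394. The 307 genes behind the 2.46% were 131 and 121 without replicates 2 and 3 at 10 µg/kg, and 175, 177 and 195 without replicates 1, 2 and 3 at 3 µg/kg.

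**Figure D5:**
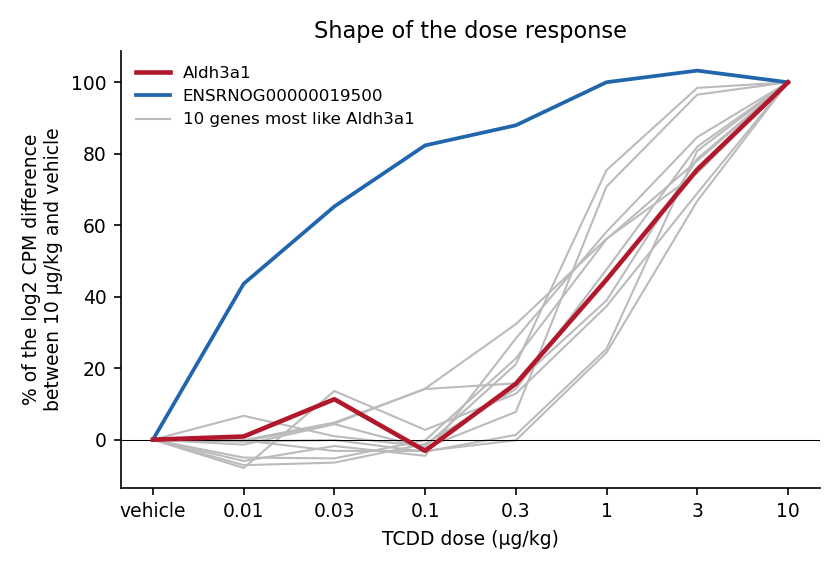
Mean log2 CPM of each group less that of vehicle, as a percentage of the difference between 10 µg/kg and vehicle, for Aldh3a1, ENSRNOG00000019500 and the 10 genes most like Aldh3a1. The curve of Aldh3a1 passes 15.6% with 0.3 µg/kg, 44.8% with 1 µg/kg and 75.6% with 3 µg/kg. That of ENSRNOG00000019500 is at 43.6% with 0.01 µg/kg already.

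Alignments that were not unique enter no gene count, and their share averaged 32.0% ± 2.85 of a table's total with 10 µg/kg and 24.1% ± 0.797 with vehicle (SD, n = 3). With these and all other alignments in the base, the mean of Aldh3a1 per 1000000 alignments was 0.199 ± 0.108 with vehicle, 149 ± 73.6 with 3 µg/kg and 1009 ± 318 with 10 µg/kg (SD, n = 3). The log2 ratio of means for 10 over 3 µg/kg was 2.76 on either base, and that for 10 µg/kg over vehicle was 12.31 on all alignments and 12.23 on gene counts.

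In the reference gene table (assembly GRCr8) the protein-coding genes next to Aldh3a1 are Usp22, which encodes a ubiquitin-specific protease, and Aldh3a2, which encodes the fatty aldehyde dehydrogenase. The gene IDs of these neighbours and of the rest of the aldehyde dehydrogenase family could not be paired with names here. The same held for the AHR battery, and levels were not analysed by name for any of these genes. The comparison ID ENSRNOG00000019500 was planned as Cyp1a1, a member of that battery, but that name could not be checked here.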

How the data were processed

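Liver RNA of 24 rats was sequenced, per the labels' protocols. The authors deposited raw counts per Ensembl gene ID, 1 table per library. The submitters' processing notes name HTSeq 0.6.1, DESeq, TopHat 1.4.1, SAMtools 0.1.2, FastQC 0.11.2 and cutadapt 1.4.1. Their settings, genome build, annotation and strand setting are not given in the sources used here, so reads from overlapping or antisense genes are uncertain. The 5 HTSeq summary rows (35.8% to 47.5% of a table) were left out of library sizes.

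Counts were analysed with edgeR 4.0.16 in R 4.3.3. filterByExpr kept 12496 of 18198 IDs with a count, libraries were scaled by TMM, and a quasi-likelihood model with 8 group means was fitted to all libraries (16 residual degrees of freedom). Benjamini-Hochberg adjustment ran over all tested genes, with a threshold of 0.05. SEs are the size of the log2 fold change divided by the square root of F. Log2 CPM used a prior count of 2. P-values measure the spread between rats labelled as biological replicates, fitted over all 8 groups rather than over the groups compared alone. The fit was tested on simulated data.

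Replicate pairs differed by at least 13.0 chi-square units per degree of freedom, so each library counted once. None of the 26404 IDs matched the reference gene table, which holds no Ensembl IDs. The name Aldh3a1 for its ID was taken as given and comes from neither the count tables nor that reference. The gene, the comparison ID and the gene lists were chosen with earlier results of these data known. The rule for named genes was Aldh3a1, the early-rising comparison ID and the 10 IDs of highest r, with at most 2 unnamed IDs printed. Lists of the AHR battery, aldehyde enzymes, cell type markers and chromosome neighbours could not be matched and gave no result. Alternatives were RLE scaling, DESeq2 1.42.0, other low-count filters, a replicate block, a fit of the groups compared alone, other prior counts and leaving out each library. A base of all alignments in place of gene counts, and likeness without replicate 2 at 0.03 µg/kg, were added after seeing the data.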

Additional observations from a re-analysis of the deposited data

Results flagged for a closer look

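Not-unique alignments enter no gene count, and their percentage of a table's total was above the vehicle level at the highest dose. It averaged 32.0% ± 2.85 with 10 µg/kg and 24.1% ± 0.797 with vehicle (SD, n = 3). Its part in the level of Aldh3a1 was not tested beyond the change of base given above.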

How the results depend on the processing

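The log2 fold changes of Aldh3a1 for 10, 3, 1 and 0.3 µg/kg over vehicle and for the upper 3 steps moved by less than 1 SD between replicates under every alternative run. That SD comes from the libraries of the groups compared, so it is no independent measure for leaving out a library. For that alternative the comparison with the SD is no measure of stability. Leaving out a library gave 11.87 to 12.65 for 10 µg/kg over vehicle and 2.40 to 3.03 for 10 over 3 µg/kg. It gave 3.33 to 4.24 for 3 over 1 µg/kg and 2.99 to 3.88 for 1 over 0.3 µg/kg, with 4.24 and 2.99 without replicate 1 at 1 µg/kg. At 0.03 µg/kg the range was 0.56 to 3.13, with 0.56 without replicate 2 of that group. At 0.01 µg/kg it was -0.18 to 0.63 and at 0.1 µg/kg -0.85 to -0.07, and no direction is read at these 2 doses, where the counting intervals of the ratio to vehicle span 1. A fit of the groups alone gave no value at 0.01, 0.03 and 0.1 µg/kg, since Aldh3a1 failed the low-count filter. With a prior count of 0.5 the SD of log2 CPM at 0.1 µg/kg was 0.88.

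Of all genes, 307 were called as higher for 10 over 3 µg/kg. A fit of those groups alone called 150, DESeq2 called 450, and 121 to 321 were called with a library left out. Of the 10 genes most like Aldh3a1, 2 were called there in the fit of those groups alone, 6 by DESeq2, 6 with the replicate block and 3 to 5 with a library left out, and 2 were shared by the ranking on Spearman's rho. The causes were not tested.

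The labels do not say that a replicate number marks anything shared, and the samples were not treated as paired. Of the 84 same-numbered pairs, 42 correlated above 0.1 in their deviations from the group means, with r from -0.245 to 0.397. Differently numbered pairs were not counted beside them. In the data, 15 of 24 libraries correlated best, on average, with their own number. With 3 numbers some libraries would do so by chance, and a shared factor was not tested. With the replicate number as a block, the log2 fold change of Aldh3a1 was 12.17 for 10 µg/kg over vehicle and 2.72 for 10 over 3 µg/kg, and 394 genes were called as higher in the second of these. Counts of list members and of chromosome neighbours were not run, since no ID could be matched. Depth limits what can be said of Aldh3a1 at or below 0.1 µg/kg, where most libraries held under 10 counts.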
